A study of Homo sapiens with 12 samples.

Results

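Transcripts of 59 genes of glucose and energy metabolism and of the oxygen response were followed in LNCaP prostate cancer cells. The genes were taken as a list of symbols by their role, with earlier results of these data known, and all 59 were found among the 63677 gene identifiers counted. They comprise 4 glucose transporters, 14 enzymes from hexokinase to pyruvate kinase, 3 enzymes that set fructose 2,6-bisphosphate, 4 lactate enzymes and transporters, 8 genes of pyruvate entry into mitochondria and pyruvate dehydrogenase, 5 subunits or sensors of the hypoxia-inducible factor (HIF) system, 5 HIF target genes, 13 citrate cycle enzymes and 3 glycogen genes.

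LNCaP is an established human prostate cancer line that expresses the androgen receptor and grows with androgen. The study asked whether Bag-1L, a cochaperone of the receptor and the longest protein made from the BAG1 gene, is needed for the response to androgen. Poly(A) RNA was sequenced from a TALEN control line (control) and a line in which a TALEN, a designed nuclease, had been aimed at the start codon that only Bag-1L uses (Bag-1L KO, here KO), each grown in full medium with fetal bovine serum (FM) or starved of hormone for 72 h (serum treated with charcoal) before receiving ethanol (EtOH, the vehicle) or 10 nM dihydrotestosterone (DHT), a potent androgen, for 16 h. There were 2 replicates in each of the 6 groups. The KO line was a single clone obtained by serial dilution, so the loss of Bag-1L and other differences between these lines cannot be told apart. All FM samples differ from the EtOH samples in serum and in starvation as well as in hormone. The medium used for starvation was also free of phenol red. Nothing in the labels states that the replicates were separate cultures, so the p-values measure the spread between these samples, which may be technical.

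Glycolysis splits glucose into pyruvate in the cytosol. Pyruvate is then either reduced to lactate and exported, or carried into mitochondria, where pyruvate dehydrogenase turns it into the acetyl-CoA that enters the citrate cycle. HIF is a transcription factor whose alpha subunits are hydroxylated by oxygen sensors and degraded through VHL when oxygen is present, and many glycolytic genes are among its targets when oxygen is scarce. Prostate luminal cells are known for secreting citrate, and androgen is known to influence glucose use in prostate cancer cells.

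The promoters of the 4 genes with the largest changes between the lines are given here, to be set beside the differences described later. Each runs from 250 bases before to 50 bases after an annotated start, 5′ to 3′ on the strand of the gene. Only the first start listed for a gene was read. The sequences are those of RefSeq on GRCh38.p14, and each was found exactly once in GRCh37, the build of the counts. Capitals mark the HIF core motif (ACGTG or GCGTG, on either strand) and the androgen receptor half-site (AGAACA, on either strand).
GYG2: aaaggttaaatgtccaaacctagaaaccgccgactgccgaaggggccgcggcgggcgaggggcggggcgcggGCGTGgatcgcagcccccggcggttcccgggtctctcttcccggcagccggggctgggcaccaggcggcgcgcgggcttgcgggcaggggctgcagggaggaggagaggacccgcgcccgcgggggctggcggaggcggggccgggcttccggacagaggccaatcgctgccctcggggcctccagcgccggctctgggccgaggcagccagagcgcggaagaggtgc
SLC16A3: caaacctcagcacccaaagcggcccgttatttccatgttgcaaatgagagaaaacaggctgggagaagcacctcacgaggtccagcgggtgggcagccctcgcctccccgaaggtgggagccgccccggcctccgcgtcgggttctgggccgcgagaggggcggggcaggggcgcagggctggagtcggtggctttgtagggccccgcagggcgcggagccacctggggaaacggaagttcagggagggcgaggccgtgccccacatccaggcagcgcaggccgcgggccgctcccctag
SLC2A12: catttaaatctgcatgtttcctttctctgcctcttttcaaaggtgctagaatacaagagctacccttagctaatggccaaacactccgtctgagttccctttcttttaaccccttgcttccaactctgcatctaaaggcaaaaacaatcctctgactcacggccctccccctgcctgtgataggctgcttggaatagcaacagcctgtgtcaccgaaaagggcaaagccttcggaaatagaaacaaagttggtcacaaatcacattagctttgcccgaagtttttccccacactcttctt
PFKP: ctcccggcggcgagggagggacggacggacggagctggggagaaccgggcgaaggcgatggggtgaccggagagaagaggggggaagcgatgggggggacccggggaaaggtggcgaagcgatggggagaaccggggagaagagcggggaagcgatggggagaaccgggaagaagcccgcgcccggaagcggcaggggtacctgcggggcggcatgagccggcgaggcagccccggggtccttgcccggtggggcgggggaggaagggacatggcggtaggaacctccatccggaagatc
In GRCh37 these windows lie at chrX:2746721-2747020 on the plus strand (GYG2), chr17:80186061-80186360 on the plus strand (SLC16A3), chr6:134373713-134374012 on the minus strand (SLC2A12) and chr10:3109912-3110211 on the plus strand (PFKP). The windows of SLC16A3 and PFKP lie inside the genes, which start at 80175810 and 3108525 in GENCODE, and other starts were not read. The GYG2 window holds 1 HIF core motif and the other windows hold none, and no half-site was found in any of them. A promoter was matched for 52 of the 59 genes, not for SLC2A3. A HIF core motif stood in 37 of these 52 windows (71.2%), against 48.4% of all 35116 promoters of the same length, and the half-site stood in 4 (7.69%) against 14.8%. The windows of the members were not matched to the others for base composition. Members have 1 window per gene, while the 35116 promoters were not reduced to 1 per gene, so the shares come from unlike sets.

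Gene counts summed to between 20826843 and 30354666 per sample, and 3 counts, used here as the floor of detection, equal 0.0988 to 0.144 CPM (counts scaled to a common total). The BAG1 transcript, which also carries the shorter Bag-1 proteins left intact by the TALEN, was lower in KO cells by 0.94 on the log2 scale in EtOH (SE 0.18, adjusted p = 6.35e-06) and by 1.14 in DHT (SE 0.18, adjusted p = 7.71e-09), while in FM its log2 fold change was -0.43 (SE 0.18, adjusted p = 0.0682). All 8 markers of luminal prostate cells had at least 10 normalized counts in every sample, and the 3 leukocyte markers stayed at or under 2.99. Of the markers of other cells, COL1A1 (a fibroblast collagen) had between 370.3 and 1013 normalized counts and was called lower with FM in both lines, KRT14 (a basal keratin) had between 0 and 30.7 and was called higher with FM in both lines, and VWF (endothelium) had between 127 and 241. The other markers of these 3 cell types were under 10 in every sample, and the part of such cells in the FM changes was not tested. Over the 55 members with a mean of at least 100 normalized counts, the median distance between replicates was largest in control EtOH, at 0.212 on the log2 scale, and smallest in control FM, at 0.0571. All levels are read counts divided by the size factor of their sample (normalized counts), all changes are log2 fold changes from DESeq2 with their standard error (SE), and a call (higher or lower) required a fold change of 1.5 or more together with a p of 0.05 or less after Benjamini-Hochberg adjustment.

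Levels of different genes were compared per kilobase of merged exons. Merged exons take in every annotated transcript of a gene, so these levels, and the shares per length given later, depend on the annotation. GAPDH, the glyceraldehyde 3-phosphate dehydrogenase, led with a mean of 19388 normalized counts per kilobase over the 12 samples, followed by the triose phosphate isomerase TPI1 at 10302, the enolase ENO1 at 8912 and the aldolase ALDOA at 8522. Together the 59 genes took between 1.49% and 1.98% of the gene counts of a sample, of which the 14 enzymes from hexokinase to pyruvate kinase took between 0.880% and 1.16%. The lactate genes took 0.209% on average in control FM and 0.230% in KO FM, against at most 0.128% in the means of the other groups. At the other end, the carbonic anhydrase CA9 had between 0 and 6.66 normalized counts and the vasodilator peptide gene ADM between 1.90 and 6.78, both too low for DESeq2 to give an adjusted p, so that a difference in these HIF targets was not detectable at this depth.

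**Figure D1:**
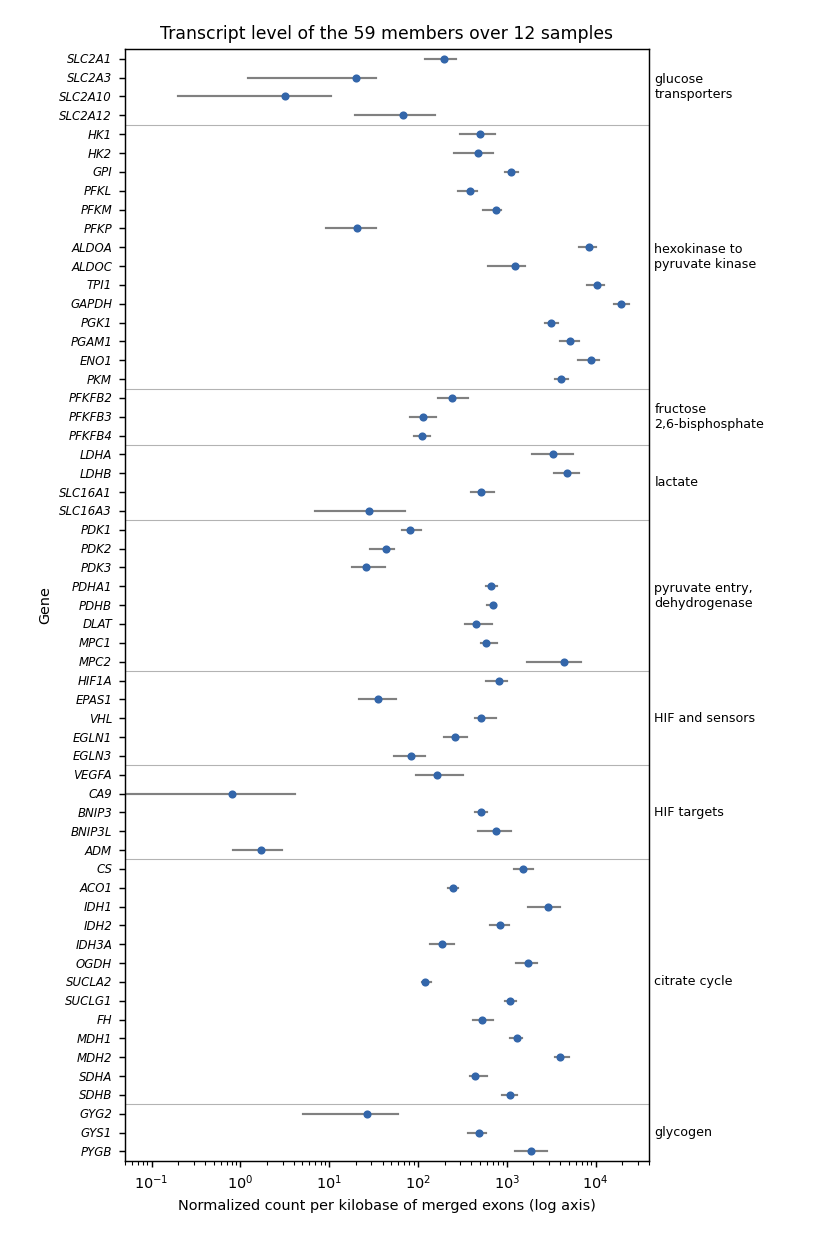
Transcript level of the 59 genes, as normalized counts per kilobase of merged exons on a log axis, ordered by role. Points are means over the 12 samples and lines run from the lowest to the highest sample (the lowest CA9 sample, at 0, lies outside the axis), with GAPDH highest and CA9 and ADM lowest.

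More members were called higher than lower with DHT, in both lines, while the signs over all tested members were near balance, with 27 positive and 30 negative in control cells and 30 and 27 in KO cells. In control cells 7 of the 57 tested members were higher with DHT than with EtOH, beside 6.04% of all 17535 tested genes, and 1 was lower, beside 5.37%. KO cells had 9 members higher (background 4.43%) and 1 lower (background 3.24%). The members called higher in both lines were 6 in number, namely SLC2A1, SLC2A3, HK1, PFKFB2, MPC2 and PYGB, and 0 were called lower in both. Over all genes 643 were called higher and 420 lower in both lines. The median log2 fold change of the members was -0.01 in control cells and 0.04 in KO cells, against -0.02 and -0.01 over all genes. As in any bulk measurement, fewer cells of a kind and less RNA per cell cannot be told apart.

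The lines differed from each other in fewer members. In EtOH 3 of 57 members were higher in KO cells (background 2.8% of 16521 genes) and 3 were lower (background 2.31%). In DHT 3 were higher (background 4.66% of 16014 genes) and 4 lower (background 3.32%), and in FM 4 of 56 were higher (background 5.41% of 15000 genes) and 3 lower (background 2.6%). SLC16A3 and SLC2A12 were higher, and PFKP and GYG2 lower, in KO cells in all of the 3 conditions. Over all genes 194 were higher and 101 lower in all 3. In each direction between 5.26% and 7.14% of the members tested were called, which rests on 3 or 4 genes each time.

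Full medium moved the largest number. Against EtOH, 11 of 57 members were higher in control cells (background 9.81% of 18549 genes) and 4 lower (background 11.5%), and 14 were higher (background 9.61%) and 3 lower (background 9.68%) in KO cells. In both lines 11 members were called higher and 2 lower, beside 1185 and 1243 of all genes. Most of the list had positive values, with 38 positive and 19 negative log2 fold changes in control cells and 41 and 16 in KO cells, and with medians of 0.23 and 0.31 against -0.01 and -0.01 over all genes. These FM comparisons share their EtOH samples with the DHT comparisons. The direct comparison of FM with DHT, which was added after the data had been seen, called 9 members higher in FM (background 8.41% of 16521 genes) and 4 lower (background 10.6%) in control cells, and 8 higher (background 6.28%) and 5 lower (background 6.8%) in KO cells.

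No member was called for a difference between the lines in the response itself. For DHT the DESeq2 interaction called 0 of 56 members, beside 0.408% of 13478 genes, with 3 members at an unadjusted p under 0.05, and edgeR called 0. For FM it called 0 of 56, beside 1.39% of 12971 genes, with 13 members at an unadjusted p under 0.05, and edgeR again called 0. The share of all genes at this unadjusted p is not given here, so nothing is read from the 3 and 13 members. Among other genes of these pathways 2 of 86 reached it for DHT and 16 of 85 for FM. A difference of the SLC2A12 response to DHT was called without control EtOH replicate 2 (0.95, SE 0.27, adjusted p = 0.0397), and 5 members (TPI1, ALDOA, MDH2, IDH2 and EPAS1) were called for FM without control EtOH replicate 1. In 35 of the 59 genes none of the 9 comparisons planned at the outset gave a call. The same count over all genes is not given here, and a gene without a call can still have changed by less than the fold required.

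**Figure D2:**
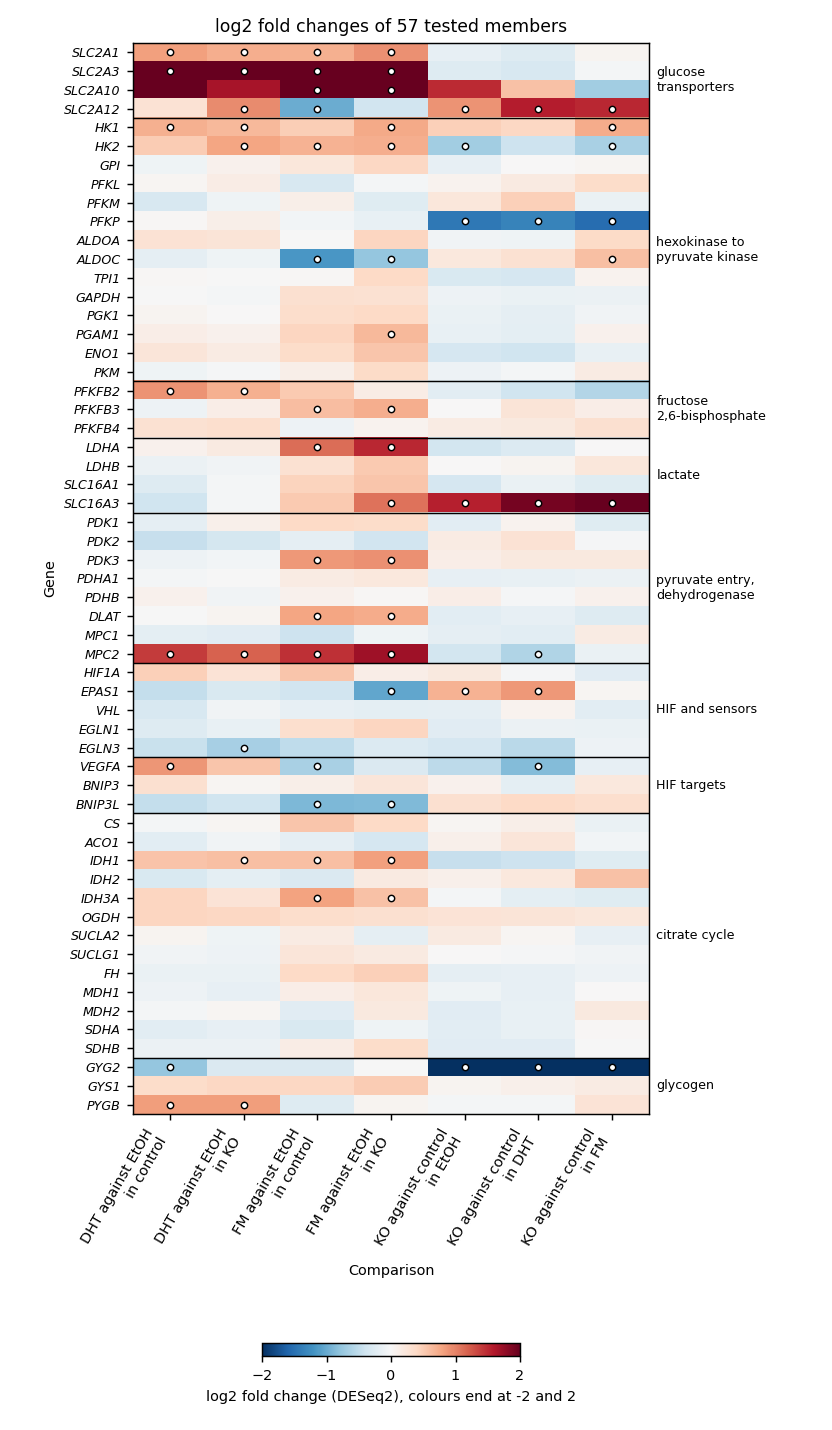
Log2 fold changes of the 57 tested members (rows, grouped by role) in 7 comparisons (columns), with red for higher and blue for lower in the first-named group, colours ending at -2 and 2, and a white dot where the change was called. SLC2A3 and MPC2 are red under DHT and FM, LDHA, PDK3 and DLAT under FM alone, and PFKP and GYG2 are blue and SLC16A3 and SLC2A12 red in every comparison of the lines. SLC2A10 was not tested for KO against control in FM.

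Among the glucose transporters, SLC2A3 had large rises with both DHT and FM. SLC2A3 (GLUT3, a high-affinity transporter, chr12:8071826-8171603 in GRCh37) had normalized counts of 14.3 and 8.95 in EtOH, 243 and 244 in DHT and 193 and 225 in FM in control cells, against 9.04 and 10.4 in EtOH, 203 and 189 in DHT and 180.0 and 228 in FM in KO cells. Every DHT and FM sample stood far above every EtOH sample in both lines. With DHT it rose by 4.39 on the log2 scale in control cells (SE 0.35, adjusted p = 4.99e-33) and by 4.33 in KO cells (SE 0.39, adjusted p = 4.21e-27), and with FM by 4.16 (SE 0.36) and 4.38 (SE 0.39). The difference between its DHT responses was -0.06, with a 95% interval of -1.08 to 0.97. Of the 50-base words in its transcripts 13.3% also occur in its neighbour SLC2A14, whose own mean was 2.57 normalized counts.

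SLC2A1 (GLUT1, the basal transporter of most cells) was the more abundant of the pair per kilobase, at 194 against 20.1 for SLC2A3. Its normalized counts were 926 and 897 in EtOH, 1755 and 1461 in DHT and 1567 and 1414 in FM in control cells, against 841 and 789.6 in EtOH, 1317 and 1379.5 in DHT and 1599.6 and 1479 in FM in KO cells. All DHT and FM samples exceeded all EtOH samples of their line. The rise with DHT was 0.82 in control cells (SE 0.13, adjusted p = 1.98e-09) and 0.73 in KO cells (SE 0.13, adjusted p = 2.73e-07), and with FM 0.71 and 0.92. SLC2A10, a transporter of low abundance, gave 1 and 2 reads in control EtOH and 26 and 52 in control FM, a ratio of 27.6 with a 95% counting interval of 9.12 to 137. In KO cells the reads were 4 and 4 in EtOH and 27 and 22 in FM, a ratio of 6.01 with an interval of 2.82 to 14.7. It was called higher with FM in both lines, a call that was lost in control cells without control FM replicate 2 and in KO cells without KO EtOH replicate 2 (log2 fold changes 4.30 and 2.45). With DHT its mean normalized count was 8.58 against 1.47 in EtOH in control cells. In KO cells these means were 12.9 and 4.14, and DESeq2 called SLC2A10 with DHT in neither line.

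SLC2A12 (GLUT12) was the transporter that differed between the lines. Its normalized counts were 290.2 and 185 in EtOH, 343 and 235 in DHT and 108 and 130.3 in FM in control cells, against 405 and 484 in EtOH, 876 and 832 in DHT and 361 and 320.0 in FM in KO cells. KO samples were above control samples in each condition without overlap. The excess in KO cells was 0.90 in EtOH (SE 0.22, adjusted p = 0.00105), 1.56 in DHT (SE 0.21, adjusted p = 3.83e-11) and 1.51 in FM (SE 0.23, adjusted p = 7.07e-09), and the call in EtOH was lost without KO EtOH replicate 2, at 0.77. DHT raised it in KO cells by 0.94 (SE 0.21, adjusted p = 1.77e-04), while control cells, whose EtOH and DHT samples overlapped, had 0.28 (SE 0.22). FM lowered it in control cells by 0.99 on the log2 scale (adjusted p = 1.47e-04), or by 0.63 without control EtOH replicate 1. In terms of transcripts per length, SLC2A12 made up 23.1% of the 4 transporters in EtOH in control cells and 38.8% in KO cells, against 15.6% and 39.6% in DHT and 7.56% and 18.7% in FM. Of its 50-base words 50.8% are shared with TBPL1 on the opposite strand, and the strand setting of the counting is not given in the sources used here. TBPL1, with a mean of 1611 normalized counts, had log2 fold changes between the lines of 0.22 in EtOH, 0.37 in DHT and 0.29 in FM, and of 0.27 with DHT in KO cells, smaller than those of SLC2A12. With FM against EtOH its changes were -0.54 in control cells and -0.48 in KO cells, where SLC2A12 had -0.99 and -0.38, and the part of TBPL1 reads in the SLC2A12 counts was not tested.

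The hexokinases, which trap glucose in the cell by phosphorylation, differed between the lines in opposite directions, HK1 with a call in FM and HK2 with calls in EtOH and FM. HK1, the isoform of most tissues, had normalized counts of 2067 and 2115 in EtOH, 3448 and 3369 in DHT and 2994 and 2897 in FM in control cells, against 2917 and 2909 in EtOH, 4365 and 4757 in DHT and 4841 and 5023 in FM in KO cells. HK2, the inducible isoform associated with many tumours, had 2667 and 2338 in EtOH, 3812 and 3294 in DHT and 4185 and 3926 in FM in control cells, against 1511 and 1584 in EtOH, 2824 and 2535 in DHT and 2647 and 2501 in FM in KO cells. In each condition the KO samples lay above the control samples for HK1 and below them for HK2, with no overlap. For HK1 the difference reached the call in FM (log2 fold change 0.74, SE 0.09, adjusted p = 1.71e-13) and had values of 0.48 in EtOH and 0.42 in DHT, under the fold required. For HK2 it was called in EtOH (log2 fold change -0.69, SE 0.12, adjusted p = 5.93e-07) and FM (log2 fold change -0.66, SE 0.12, adjusted p = 1.89e-06), with -0.41 in DHT. Per length, HK1 made up between 38.1% and 46.8% of HK1 and HK2 together in the 6 control samples and between 57.1% and 63.4% in the 6 KO samples.

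Both hexokinases also moved with culture. With DHT, HK1 rose by 0.71 in control cells (SE 0.09, adjusted p = 2.03e-12) and by 0.65 in KO cells (SE 0.09, adjusted p = 1.22e-10), the latter falling to 0.58 and losing its call without KO DHT replicate 2. HK2 rose with DHT in KO cells by 0.79 (SE 0.12, adjusted p = 1.69e-09), and in control cells its value was 0.51 (SE 0.12). FM raised HK2 in control and KO cells by 0.70 and 0.73, and HK1 in KO cells by 0.76. The difference between the lines in these responses was not called, with 0.29 ± 0.17 (SE) for HK2 and -0.06 ± 0.13 for HK1 under DHT.

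PFKP, the platelet isoform of phosphofructokinase, the committing step of glycolysis, was lower in the KO line at every condition. Normalized counts of PFKP (chr10:3108525-3179910) were 261 and 212 in EtOH, 254 and 224 in DHT and 241 and 214 in FM in control cells, against 93.8 and 81.9 in EtOH, 90.4 and 99.6 in DHT and 85.8 and 71.2 in FM in KO cells. All KO samples lay below all control samples. The log2 fold changes were -1.43 in EtOH (SE 0.22, adjusted p = 7.23e-09), -1.34 in DHT (SE 0.21, adjusted p = 2.60e-08) and -1.53 in FM (SE 0.22, adjusted p = 7.46e-10). With DHT and FM its changes lay between -0.15 and 0.11, and these samples overlapped with the EtOH samples in both lines. PFKP was the minor isoform, with mean shares per length of between 2.57% and 3.05% of the 3 phosphofructokinases in the control groups and between 0.887% and 0.959% in the KO groups. The muscle isoform PFKM and the liver isoform PFKL, which made up the rest, were called in no planned comparison.

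Below phosphofructokinase few enzymes were called. The 14 enzymes from hexokinase to pyruvate kinase had median changes with FM against EtOH of 0.17 in control cells and 0.40 in KO cells. Over all genes these medians were -0.01 and -0.01. ALDOC, the aldolase typical of brain, had normalized counts of 3420.1 and 3891 in EtOH, 3249.8 and 3181 in DHT and 1668 and 1600.1 in FM in control cells, against 4210.5 and 4239.6 in EtOH, 3800.0 and 4171 in DHT and 2411 and 2550.4 in FM in KO cells. Its FM samples were the lowest of their line. FM lowered it by 1.16 on the log2 scale in control cells (SE 0.11, adjusted p = 5.58e-26) and by 0.77 in KO cells (SE 0.10, adjusted p = 4.99e-12), and KO cells exceeded control cells in FM by 0.60, a call lost without control FM replicate 2 (0.57) or without KO FM replicate 2 (0.56). PGAM1, a phosphoglycerate mutase, rose with FM in KO cells by 0.65 (SE 0.10, adjusted p = 2.85e-09), with 0.42 in control cells, and 40.0% of its 50-base words occur in other genes. GPI, PFKL, PFKM, ALDOA, TPI1, GAPDH, PGK1, ENO1 and PKM were called in no planned comparison, with changes there from -0.41 (ENO1, KO against control in DHT) to 0.56 (ENO1, FM in KO cells). ALDOA and GAPDH share 47.7% and 21.6% of their words with other genes of GENCODE v44. The annotation used for counting may lack some of these genes, and the effect on the counts was not tested.

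**Figure D3:**
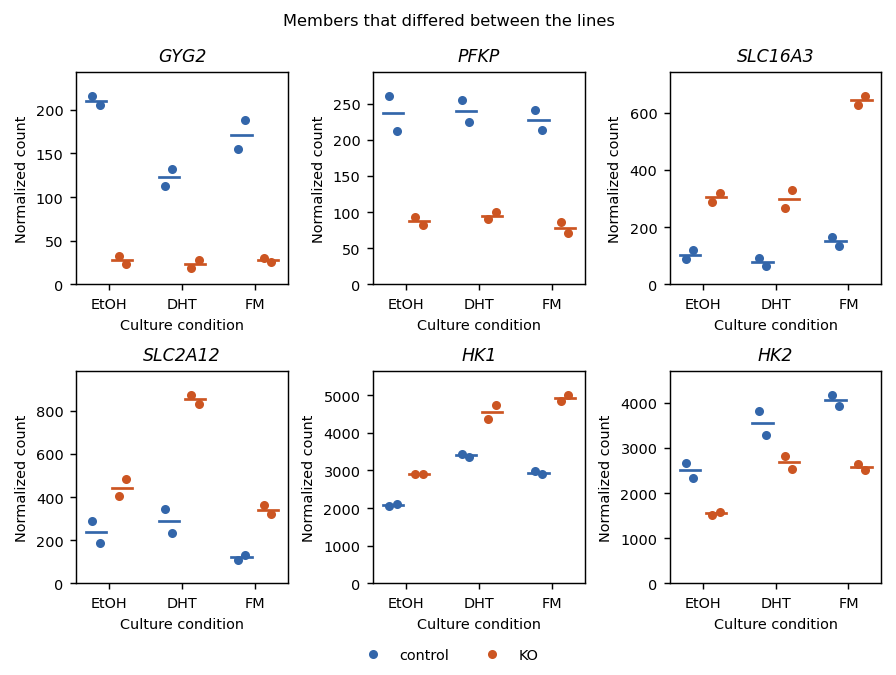
Normalized counts of GYG2, PFKP, SLC16A3, SLC2A12, HK1 and HK2 in EtOH, DHT and FM, with a point per sample, a bar at the mean of the 2 replicates, control in blue and KO in orange. The points of the lines are apart in each condition, with control above KO for GYG2, PFKP and HK2 and below it for SLC16A3, SLC2A12 and HK1.

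The enzymes that make and break fructose 2,6-bisphosphate, the strong activator of phosphofructokinase, each behaved in their own way. PFKFB2 (known as the heart isoform) had normalized counts of 2067 and 1897 in EtOH, 3685 and 3720.1 in DHT and 2852 and 2854 in FM in control cells, against 1708 and 1721 in EtOH, 2978 and 2619.6 in DHT and 1946 and 1863 in FM in KO cells. DHT samples were highest in both lines, and KO samples lay below control samples in every condition. DHT raised it by 0.90 in control cells (SE 0.10, adjusted p = 1.82e-16) and by 0.71 in KO cells (SE 0.10, adjusted p = 5.46e-10), with a difference of responses of -0.19 ± 0.15 (SE). Between the lines its change in FM was -0.58, just under the fold required. PFKFB3, the inducible isoform of dividing cells, rose with FM by 0.61 in control cells and 0.73 in KO cells (adjusted p = 1.13e-05 and 1.22e-07), and the call in control cells was lost without control FM replicate 1 (0.55) or without control EtOH replicate 2 (0.56). PFKFB4 was called in no planned comparison and lay between -0.10 and 0.34 in them, with -0.40 and -0.27 for FM against DHT.

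Lactate dehydrogenase A, which turns pyruvate into lactate, rose with FM and was not called with DHT. LDHA had normalized counts of 14727 and 15282 in EtOH, 15320.3 and 16609.5 in DHT and 32000.4 and 33278 in FM in control cells, against 11536 and 11629 in EtOH, 13154 and 13153 in DHT and 33036 and 32699 in FM in KO cells. Both FM groups stood at about the same level, far above all starved samples whether or not DHT was given. The rise over EtOH was 1.12 in control cells (SE 0.08, adjusted p = 1.27e-37) and 1.5 in KO cells (SE 0.08, adjusted p = 1.12e-67), and over DHT 1.03 and 1.32. The DHT changes were 0.09 ± 0.09 (SE) in control cells and 0.18 ± 0.09 in KO cells. Among the members tested for a difference in FM response, LDHA had the lowest adjusted p, with 0.38 (SE 0.12, adjusted p = 0.0712). Its share per length of LDHA and LDHB together rose from a mean of 36.5% in control EtOH to 49.9% in control FM, and from 30.2% in KO EtOH to 46.1% in KO FM. LDHB, which favours the reverse reaction, was called higher in FM than in DHT in KO cells (0.60, lost without KO FM replicate 2 at 0.55) and in no other comparison.

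SLC16A3 (MCT4, an exporter of lactate typical of glycolytic cells) was the member most raised in the KO line. Normalized counts of SLC16A3 (chr17:80175810-80219005) were 89.5 and 118 in EtOH, 93.9 and 63.5 in DHT and 166 and 134 in FM in control cells, against 289 and 318 in EtOH, 265 and 329 in DHT and 627 and 659 in FM in KO cells. Every KO sample exceeded every control sample. The difference was 1.55 in EtOH (SE 0.21, adjusted p = 7.97e-11), 1.91 in DHT (SE 0.22, adjusted p = 1.19e-15) and 2.10 in FM (SE 0.20, adjusted p = 2.59e-22). FM raised it in KO cells by 1.08 (adjusted p = 3.16e-07), with 0.53 in control cells, and the difference of these responses was 0.55 ± 0.30 (SE). Even so SLC16A1 (MCT1) remained the main transporter of the pair, since SLC16A3 made up between 1.51% of their sum per length in the lowest sample and 10.7% in the highest. SLC16A1 was called only for FM against DHT, with 0.71 in control and 0.60 in KO cells, the latter lost without KO FM replicate 1 or KO DHT replicate 2 (both 0.58).

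Of the genes for pyruvate entry, MPC2, a subunit of the mitochondrial pyruvate carrier, had the largest response. Its normalized counts were 5279.5 and 6825 in EtOH, 13874 and 18056 in DHT and 15602 and 17662 in FM in control cells, against 4851 and 4514 in EtOH, 10888 and 10233 in DHT and 14499 and 15778 in FM in KO cells. In both lines EtOH samples were the lowest by far. The rise with DHT was 1.40 in control cells (SE 0.15, adjusted p = 3.65e-19) and 1.17 in KO cells (SE 0.15, adjusted p = 2.14e-13), and with FM 1.46 and 1.69. In DHT the KO line was lower by 0.60 on the log2 scale (SE 0.15, adjusted p = 0.00101), but this call held in 6 of 13 alternatives. Among these 6 is the main fit without a fold minimum, which could not lose the call. The call was lost in edgeR (-0.56), with TMM size factors (-0.56), with the replicate number as a block in either form (-0.58) and with only the groups compared (-0.58). It was also lost without control DHT replicate 2 (-0.39) or KO DHT replicate 2 (-0.55). The partner subunit MPC1 was called in no planned comparison, with -0.20 and -0.23 under DHT and a mean of 583 normalized counts per kilobase against 4361 for MPC2. DCAF6, which overlaps MPC2 and holds 16.6% of its 50-base words, had DHT changes of 0.73 and 0.60, also upward.

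Of the pyruvate dehydrogenase complex and its kinases, PDK3 and DLAT were called with FM, and none of the 6 genes was called with DHT or between the lines by DESeq2. PDK3, a kinase that switches the complex off, had normalized counts of 337 and 347 in EtOH, 318 and 317 in DHT and 571 and 674 in FM in control cells, against 402 and 352 in EtOH, 370.3 and 357 in DHT and 692 and 734 in FM in KO cells. The FM samples were above all others of their line. The rises were 0.87 in control cells (SE 0.14, adjusted p = 3.30e-08) and 0.92 in KO cells (SE 0.14, adjusted p = 2.30e-09). DLAT, the acetyltransferase core of the complex, rose with FM by 0.78 (SE 0.09) and 0.74 (SE 0.09), and its DHT changes were -0.00085 and 0.05. Against DHT both were higher in FM in each line, by 0.97 and 0.97 for PDK3 and by 0.78 and 0.69 for DLAT. PDK1, PDK2, PDHA1 and PDHB were called in no planned comparison, with values there from -0.47 (PDK2, DHT in control cells) to 0.40 (PDK1, FM in control cells).

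**Figure D4:**
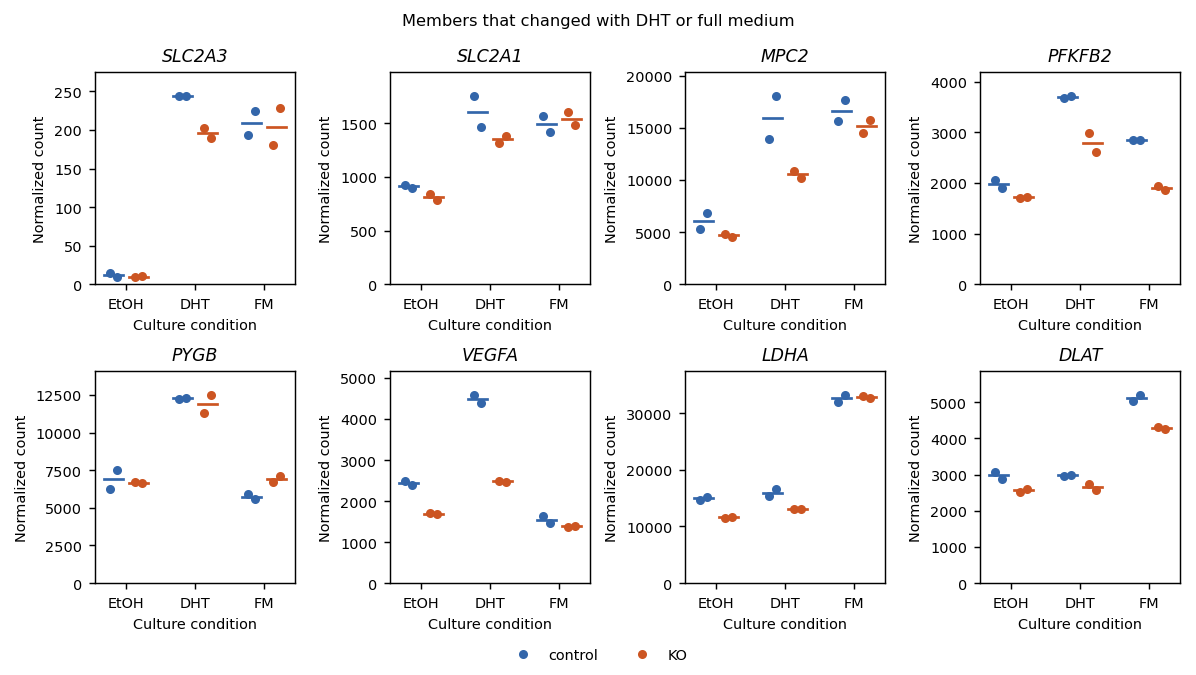
Normalized counts of 8 members in EtOH, DHT and FM, with a point per sample, a bar at the mean of the 2 replicates, control in blue and KO in orange. SLC2A3, SLC2A1 and MPC2 are high in both DHT and FM, PFKFB2 highest in DHT, PYGB and VEGFA high in DHT and not in FM, and LDHA and DLAT high in FM alone.

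The alpha subunits of HIF were unequal in abundance, with HIF1A at 818 normalized counts per kilobase and EPAS1 (HIF-2 alpha) at 35.1. HIF1A, VHL and the oxygen sensor EGLN1 were called in no planned comparison, with changes from -0.32 (VHL, DHT in control cells) to 0.56 (HIF1A, FM in control cells). EGLN1 was called higher in FM than in DHT in control cells (0.60), which was lost without control FM replicate 2 (0.53) or control DHT replicate 1 (0.50), and 55.1% of its 50-base words occur in other genes. EPAS1 had normalized counts of 279.8 and 215 in EtOH, 196 and 158 in DHT and 209 and 172 in FM in control cells, against 385 and 418 in EtOH, 319 and 329.7 in DHT and 203 and 187 in FM in KO cells. KO samples were higher than control samples in EtOH and DHT, while in FM the lines overlapped. The difference was 0.70 in EtOH (SE 0.18, adjusted p = 0.0032) and 0.87 in DHT (SE 0.19, adjusted p = 1.11e-04), and FM lowered it in KO cells by 1.04 on the log2 scale (adjusted p = 3.87e-07). The call in EtOH was lost when only the groups compared were fitted (0.70) and without control EtOH replicate 2 (0.52), KO EtOH replicate 1 (0.75) or KO EtOH replicate 2 (0.64). For EGLN3, an oxygen sensor that is itself induced by HIF, normalized counts were 789 and 877 in EtOH, 509.8 and 710.1 in DHT and 617 and 559 in FM in control cells, against 706 and 619 in EtOH, 396 and 441 in DHT and 529.8 and 563 in FM in KO cells. DHT samples lay below EtOH samples in both lines, with a called fall of 0.66 on the log2 scale in KO cells (SE 0.17, adjusted p = 0.00106) and -0.45 in control cells. That call was lost without KO EtOH replicate 1 (-0.56) or KO DHT replicate 1 (-0.58).

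HIF targets moved in different directions. VEGFA, the vascular growth factor, had normalized counts of 2481 and 2391 in EtOH, 4596 and 4399 in DHT and 1632 and 1461 in FM in control cells, against 1699 and 1675 in EtOH, 2488 and 2467 in DHT and 1372 and 1399.6 in FM in KO cells. In both lines the DHT samples were the highest and the FM samples the lowest. DHT raised it in control cells by 0.88 (SE 0.10, adjusted p = 6.25e-18), with 0.55 (SE 0.10) in KO cells, under the fold required, and the difference of these responses was -0.33 (SE 0.14, adjusted p = 0.819). The KO line was lower in DHT by 0.86 on the log2 scale (SE 0.10, adjusted p = 1.77e-16), with -0.53 in EtOH and -0.16 in FM. FM lowered it in control cells by 0.66 against EtOH, which lost its call without control FM replicate 2 (-0.57), and against DHT by 1.54 in control and 0.84 in KO cells. For BNIP3L, a receptor for the removal of mitochondria, normalized counts were 3927 and 3434 in EtOH, 2489.6 and 2777 in DHT and 1958 and 1976 in FM in control cells, against 4481 and 4680.0 in EtOH, 3569 and 3349 in DHT and 2425 and 2525 in FM in KO cells. FM samples were the lowest in each line, with falls of 0.90 (SE 0.11, adjusted p = 3.74e-15) and 0.89 (SE 0.11, adjusted p = 6.17e-15) on the log2 scale. The related BNIP3 was called in no planned comparison, in which it lay between -0.20 and 0.33.

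In the citrate cycle 11 of 13 enzymes were called in none of the planned comparisons, with changes from -0.34 (the aconitase ACO1, FM in KO cells) to 0.58 (the isocitrate dehydrogenase IDH2, KO against control in FM). The exceptions, IDH1 and IDH3A, belong to different isocitrate dehydrogenases. Over the 13 enzymes the median changes with FM against EtOH were 0.17 in control cells and 0.23 in KO cells, against -0.01 and -0.01 over all genes. IDH1, the cytosolic NADP-dependent form, had normalized counts of 10719 and 12338 in EtOH, 15420.2 and 18767 in DHT and 16732 and 18157 in FM in control cells, against 8518 and 8261 in EtOH, 13102 and 12428 in DHT and 14463 and 15109 in FM in KO cells. EtOH samples were the lowest of their line. It rose in KO cells by 0.61 with DHT (SE 0.12, adjusted p = 8.91e-06) and by 0.82 with FM (SE 0.12), and in control cells by 0.60 with FM, with 0.57 for DHT. The call for DHT in KO cells was lost without KO EtOH replicate 2 (0.58) or KO DHT replicate 1 (0.57), and that for FM in control cells without control FM replicate 2 (0.54) or control EtOH replicate 1 (0.50). IDH3A, the catalytic subunit of the mitochondrial NAD-dependent form, rose with FM by 0.81 (adjusted p = 1.57e-13) and 0.59 (adjusted p = 1.71e-07), the latter lost without KO FM replicate 1 (0.58) or KO EtOH replicate 1 (0.54). Other genes hold 34.5% of the 50-base words of IDH3A. The comparison of FM with DHT added citrate synthase (CS) in control cells (0.60, lost without control DHT replicate 2 at 0.50) and fumarase (FH) in KO cells (0.61).

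GYG2, one of the glycogenins that prime glycogen synthesis, had the largest difference between the lines of all members. Normalized counts of GYG2 (chrX:2746863-2800859) were 216 and 205 in EtOH, 113 and 132 in DHT and 155 and 189 in FM in control cells, against 32.8 and 23.5 in EtOH, 18.6 and 27.9 in DHT and 29.8 and 25.2 in FM in KO cells. All KO samples lay far below all control samples. The log2 fold changes were -2.92 in EtOH (SE 0.30, adjusted p = 1.27e-19), -2.42 in DHT (SE 0.31, adjusted p = 7.96e-13) and -2.64 in FM (SE 0.30, adjusted p = 6.86e-16). In control cells DHT lowered it by 0.78 on the log2 scale (SE 0.24, adjusted p = 0.0104), a call lost when only the groups compared were fitted (-0.76) and without control EtOH replicate 1 (-0.74) or control DHT replicate 1 (-0.67). The change in KO cells, at far lower counts, was -0.28 (SE 0.35).

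PYGB, a glycogen phosphorylase that releases glucose from glycogen, rose with DHT in both lines. Normalized counts of PYGB were 6265 and 7506 in EtOH, 12250.2 and 12328 in DHT and 5912 and 5565 in FM in control cells, against 6719 and 6640.3 in EtOH, 11302 and 12527 in DHT and 6729 and 7141 in FM in KO cells. All DHT samples exceeded all other samples. The rise was 0.84 in control cells (SE 0.11, adjusted p = 1.81e-12) and 0.83 in KO cells (SE 0.11, adjusted p = 2.44e-12), with a difference of -0.00099 and a 95% interval of -0.31 to 0.31. FM did not share this rise, with -0.26 and 0.05 against EtOH, and the falls against DHT were 1.10 and 0.78 on the log2 scale. The glycogen synthase GYS1 was called in no planned comparison and ranged from 0.05 to 0.51 in them.

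Taking the DHT and FM patterns side by side, SLC2A1, SLC2A3 and MPC2 were called higher in both treatments in both lines. PYGB was called higher with DHT and then lower in FM than in DHT in both lines, while LDHA, PDK3, DLAT and PFKFB3 were called higher in FM against EtOH and against DHT in both lines. The PFKFB3 call for FM against DHT in KO cells was lost without KO FM replicate 1 (0.57) or KO DHT replicate 1 (0.55). Lower in FM than in DHT were also SLC2A12, by 1.27 on the log2 scale in control cells and 1.33 in KO cells, and ALDOC, by 0.98 and 0.68, and EPAS1 in KO cells, by 0.73. SLC16A3 was higher in FM than in DHT by 0.93 in control and 1.12 in KO cells. SLC2A10 was higher by 2.21 in control cells, a call lost without control FM replicate 1 (2.57), control FM replicate 2 (1.74) or control DHT replicate 2 (1.72). The EtOH samples are common to the DHT and FM comparisons, and the medium of the FM samples held serum that had not been stripped of hormones and other small molecules.

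Changes between the lines were also read in up to 10 expressed genes on each side of a member. Around SLC16A3 the median log2 fold change of 20 neighbours was -0.07 in EtOH, -0.12 in DHT and 0.25 in FM, where 18 of them were positive. Around SLC2A12 it was between -0.18 and -0.10, and around PFKP between -0.16 and 0.02 with 16 neighbours. The 19 neighbours of GYG2 had medians between -0.09 and -0.01 but spanned -2.24 to 0.24 in EtOH. Around MPC2 the medians were -0.15, -0.29 and -0.23 in EtOH, DHT and FM, with 19, 17 and 19 of 20 neighbours on the same side as MPC2. Around HK1, HK2, EPAS1, VEGFA and ALDOC the medians lay between -0.18 and 0.02. The differences of SLC16A3, SLC2A12, PFKP and GYG2 exceeded the medians around them. These genes were named for their large changes, so this excess decides nothing about longer stretches of chromosome. In DHT the lowest single neighbours were at -2.28 for GYG2 and -1.15 for PFKP. The contribution of the neighbourhood to any of these values, MPC2 among them, was not tested.

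Other genes of these pathways, 111 in 6 lists, were counted in the same way. With DHT 6 were higher (background 6.04%) and 6 lower (background 5.37%) of 93 tested in control cells. In KO cells 7 were higher (background 4.43%) and 5 lower (background 3.24%). The lists of other citrate cycle and pentose phosphate genes had 0 calls with DHT in either line. Between the lines 5 were higher (background 2.8%) and 2 lower (background 2.31%) in EtOH. In DHT 7 were higher (background 4.66%) and 6 lower (background 3.32%) of 92. In FM 6 were higher (background 5.41%) and 3 lower (background 2.6%) of 89. With FM 11 were higher (background 9.81%) and 14 lower (background 11.5%) of 94 in control cells. In KO cells 11 were higher (background 9.61%) and 13 lower (background 9.68%). Of the other HIF pathway genes and targets, 5 were higher and 3 lower of 20 with DHT in control cells, and 4 and 2 in KO cells. FM gave 4 higher and 5 lower of 21 in control cells, and 4 and 6 in KO cells. Between the lines 1 was higher and 2 lower of 20 in EtOH, and 3 and 4 of 19 in DHT. In FM it was 0 and 1 of 19. In the glycolysis list FBP2, a fructose bisphosphatase, and SLC2A13, a myo-inositol transporter, were higher in KO cells in each of the 3 conditions, FBP2 by 1.46 in EtOH and 1.73 in DHT (its control FM samples were near the floor) and SLC2A13 by 1.14, 0.66 and 0.77 in EtOH, DHT and FM. The neuronal enolase ENO2 was higher in KO cells in EtOH and DHT (1.16 and 1.02). From the same list SLC2A11 was called higher in EtOH and DHT too, and LDHD in FM. For the difference between lines in the FM response 1 gene of 85 tested, DDIT4, was called (0.88), beside 1.39% of all genes, and edgeR called 0.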

How the data were processed

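RNA-seq read counts per gene of 12 samples were used as the authors deposited them, not normalized. Stranded poly(A) libraries were sequenced by the authors on an Illumina HiSeq instrument. Per the submitters' processing notes and the study's methods, reads were processed with CASAVA 1.7, mapped to GRCh37 with TopHat2 2.0.11 and counted per Ensembl gene with HTSeq 0.5.3p3. The Ensembl release and strand setting are not given in the sources used here. HTSeq drops reads with several alignments or overlapping several genes, so genes with close copies or overlapping neighbours are counted low. The 5 tally rows of such reads were left out of all totals. Of all rows summed, ambiguous reads were between 6.90% and 7.97%, reads outside genes between 3.55% and 4.58% and reads with several alignments between 15.9% and 20.0%.

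Genes with fewer than 10 counts summed over the samples were left out, which kept 26156 genes and all 59 members. DESeq2 1.42.0 in R 4.3.3 was fitted to all 12 samples with a coefficient for each of the 6 groups and no covariate, with Wald tests, unshrunken log2 fold changes and p-values adjusted over all genes by Benjamini-Hochberg. The fit was tested on simulated counts. Alternatives were edgeR 4.0.16 (quasi-likelihood), TMM size factors, no filter, at least 10 counts in every sample, only the groups compared, counts thinned to the smallest total, no fold change minimum, 2 replicate blocks and each replicate left out in turn. Correlations between the deviations of same-numbered samples were of both signs, so the numbers were not taken as pairs.

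The members and the other gene lists were chosen with earlier results of these data known. Members called in a planned comparison were named with their values, with counts per sample where the call was for DHT or the lines or was among the 5 largest rises or falls with FM in a line. Positions and exon lengths came from GENCODE v44 lifted to GRCh37. Shared sequence was counted as 50-base words of a gene's transcripts that occur in transcripts of other genes in GENCODE v44. The annotation used for counting may lack some of these, so shared words need not mean lost reads. Counting intervals cover counting error only.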

Additional observations from a re-analysis of the deposited data

How the results depend on the processing

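With 2 samples a group, counts of calls depend on the fold minimum. Without it the members called were 19 for DHT in control cells and 14 in KO cells. For KO against control they were 13, 17 and 13 in EtOH, DHT and FM. They were 33 and 35 for FM against EtOH in control and KO cells, and 27 and 31 for FM against DHT. Other genes gain calls under this rule too. Of the other pathway genes, 29 and 21 of 93 passed it for DHT in control and KO cells. For KO against control 18 of 93, 25 of 92 and 28 of 89 did so in EtOH, DHT and FM. For FM against EtOH 49 and 45 of 94 did so in control and KO cells. The share of all genes under this rule is not given here, so these counts show only how calls depend on it. Leaving out each replicate in turn gave between 0 and 1 members with a different DHT response and between 0 and 5 with a different FM response, 1 without control EtOH replicate 2 and 5 without control EtOH replicate 1. The replicate number entered as a block, either common to the lines or separate for each, gave 6 members instead of 7 for KO against control in DHT, where MPC2 was lost, and equal counts elsewhere. With edgeR 9 members instead of 8 were called for DHT in control cells. For KO against control edgeR called 6 instead of 7 in DHT and 8 instead of 7 in FM. For FM against DHT in control cells it called 14 instead of 13. Over the 15 pairs of groups the deviations of same-numbered samples had correlations between -0.415 and 0.692, positive in 8 and highest between control EtOH and control DHT, so no pairing was assumed. Of 1241 log2 fold changes of called members under the alternatives, 1192 stayed past the threshold in the same direction, 49 did not reach it and 0 reversed. Of the 49, 35 came from leaving out a replicate. The setting without a fold minimum is the main fit read under a looser rule. It could lose no call, so its values count among the 1192 by construction. The cause of the lost calls was not tested. Among the members that lost calls were IDH1, IDH3A, PFKFB3, EGLN3, CS, LDHB, SLC2A10 and EPAS1. Depth limits CA9 and ADM, which stayed near the floor of detection.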
